A study of Arabidopsis thaliana with 24 samples.

Results

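CP29 is a chlorophyll-binding protein that sits between the outer light-harvesting trimers and the core of photosystem II, and in Arabidopsis it is encoded by LHCB4.1, LHCB4.2 and LHCB4.3. PGRL1B encodes a copy of PGRL1, a thylakoid protein that works with PGR5 in cyclic electron transport around photosystem I. These 4 genes were selected by name from the given probe set annotation, and each was on 1 probe set that listed that gene alone. They are 4 of 13356 genes named in this way. Their gene identifiers are AT5G01530 for LHCB4.1, AT3G08940 for LHCB4.2, AT2G40100 for LHCB4.3 and AT4G11960 for PGRL1B.

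Rosettes of wild-type Arabidopsis thaliana, accession Col-0, had grown on soil at 20 °C with 12 h of light per day. At an age of 4 weeks, when 4 h of the day's light had passed, plants were transferred to 17, 14, 12, 10 or 8 °C, or to 20 °C as the control. They were frozen 6 h or 78 h later, both times 10 h into the light, so that the 78 h plants had passed 3 further nights. Messenger RNA was measured on 24 one-colour oligonucleotide arrays, with 3 rosettes per sample and 2 arrays, marked A and B, for each of the 12 combinations of temperature and harvest. The labels also speak of at least 5 replicate samples as typical, and how these relate to the 2 arrays was not settled. All plants share genotype, soil and light regime, and the groups differ in temperature and harvest alone as far as the labels state. No mutant of any of the 4 genes was included.

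Antenna proteins collect light and pass it to the reaction centres, and plants adjust them when the light absorbed exceeds what carbon fixation can use, as happens in the cold. CP29 is a site where excess energy can be released as heat, and in maize it is phosphorylated in cold and light. LHCB4.3 encodes a form with a shorter C-terminal end that is known for its induction under high light in Arabidopsis. Cyclic electron transport returns electrons from ferredoxin to the plastoquinone pool and so drives ATP synthesis without net NADPH. It has a PGR5/PGRL1 route and a second route through the NDH complex, a large thylakoid assembly with subunits from both plastid and nucleus.

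On the log2 scale the signals of the table ran from 3.87 to 14.81, and array medians from 7.15 to 7.25. The letters A and B separated all arrays on the first principal component, which held 39.2% of the variance. Tests used the spread between the 2 arrays of a group, and p-values with the letter as a replicate block are given where they change a call. The letter is in every group once, so the block leaves each estimate as it was. Of 3 measured leaf markers (RCA, PRK and SBPASE, of 10 listed) mean signals were 13.95, 13.35 and 12.96, among the bright ones of the table. Of 3 measured root markers (of 4 listed) EXPA7 and EXPA18, expansins of root hairs, averaged 5.97 and 5.56, below the array medians, and PYK10, a root beta-glucosidase, averaged 9.20, above them. In rosettes a lower signal can mean less transcript per cell or fewer cells that hold it, and these cannot be told apart here.

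PGRL1B changed most of the 4 genes. Its transcript was lower in every chilled group than at 20 °C. At 6 h the loss had much the same size at all 5 chilling temperatures. At 78 h it deepened with every step of cooling, to 2.50-fold below the control at 8 °C.

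In the 6 h harvest the A and B arrays of PGRL1B read 8.94 and 8.87 at 20 °C, 8.40 and 8.32 at 17 °C, 8.38 and 8.29 at 14 °C, 8.31 and 8.20 at 12 °C, 8.39 and 8.26 at 10 °C, and 8.45 and 8.18 at 8 °C. Both 20 °C arrays stood above all 10 chilled arrays, and chilled groups next to each other in the order of means overlapped. After 78 h the values were 9.07 and 8.92 at 20 °C, 8.61 and 8.44 at 17 °C, 8.41 and 8.05 at 14 °C, 8.02 and 8.04 at 12 °C, 7.81 and 7.77 at 10 °C, and 7.67 and 7.68 at 8 °C. No neighbouring pair of these 6 groups overlapped, which held for 0.215% of all 22746 probe sets at 78 h. With either letter the signal went down at each step, as it did for 0.928% of probe sets. That both arrays of every chilled group lay below both control arrays was met by 4.52% of probe sets at 6 h and by 4.08% at 78 h.

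**Figure D1:**
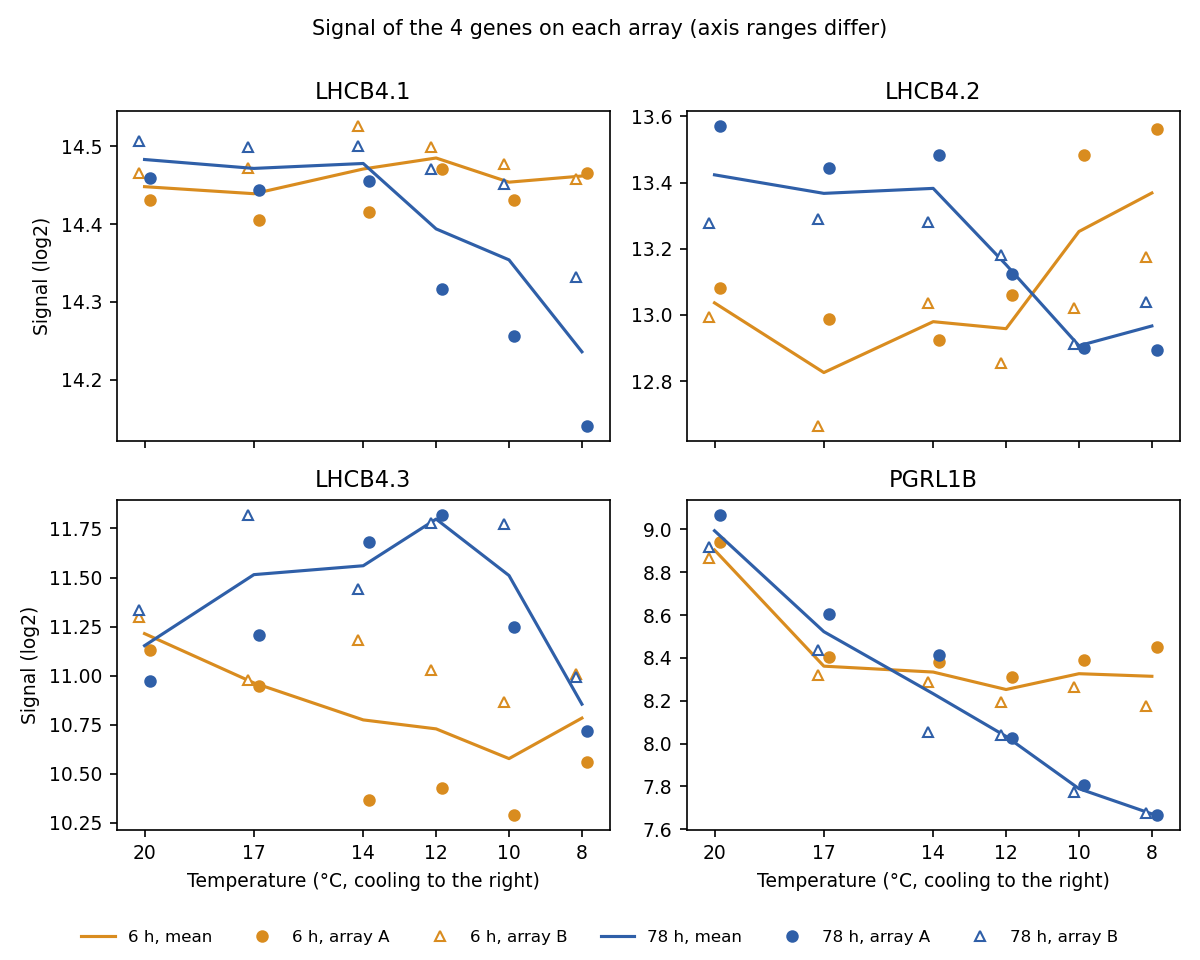
Signal on the log2 scale (vertical axis, range differs by panel) against temperature in °C (horizontal axis, cooling to the right) for the 4 genes. Filled circles are A arrays, open triangles B arrays and lines group means (n = 2), in orange for 6 h and blue for 78 h. PGRL1B is lower in all chilled groups at both harvests, and LHCB4.3 at 78 h is highest at 12 °C.

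At 6 h, PGRL1B fell by 0.57 ± 0.11 log2 (estimate ± SE) at 14 °C against 20 °C (adjusted p = 0.0499, and 0.00166 with the block). It fell by 0.65 ± 0.11 at 12 °C (adjusted p = 0.00659), by 0.58 at 10 °C (0.00652) and by 0.59 at 8 °C (0.00651), the last a 1.51-fold reduction. Shares of all probe sets called in these 4 comparisons without the block were 0.391%, 2.72%, 6.52% and 6.03%. At 17 °C, only 3 °C below the control, the difference was -0.54 ± 0.11 with an adjusted p of 0.406, which became 0.0133 with the letter as a replicate block, where 0.163% of probe sets were called. The 17 °C estimate was as large as the colder ones, and its unadjusted p was 0.000298. The 14 °C call was lost in 20 of the 24 omissions of 1 array, with adjusted p up to 0.276, and without the dimmest probe sets, with trend and robust estimation, with array weights and with the 6 h arrays alone (0.0586 to 0.193). Those at 12, 10 and 8 °C were each lost when the early A array of 20 °C or the group's own B array was omitted, with adjusted p up to 0.0768.

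At 78 h, PGRL1B fell by 0.76 ± 0.11 at 14 °C (adjusted p = 0.0377, and 0.000791 with the block). It fell by 0.96 at 12 °C (0.00143), by 1.21 at 10 °C (9.81e-05) and by 1.32 ± 0.11 at 8 °C (2.43e-05). Without the block 0.0352%, 0.774%, 4.27% and 7.36% of probe sets were called. These are reductions of 1.70, 1.95, 2.31 and 2.50-fold. At 17 °C the difference was -0.47 ± 0.11 (adjusted p = 1, and 0.0775 with the block), against an unadjusted p of 0.000998. The 14 °C call was lost in 19 of the 24 omissions (adjusted p up to 0.528). It was also lost with cyclic loess, without the dimmest 25% of probe sets, with trend and robust estimation and with the 78 h arrays alone (adjusted p from 0.0633 to 0.172), while those at 12, 10 and 8 °C held in all 24, with adjusted p up to 0.0304. The 5 comparisons of a harvest share the same control arrays.

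Over the 6 temperatures PGRL1B had a slope of -0.41 ± 0.08 log2 per 10 °C of cooling in the early harvest (adjusted p = 0.00405). In the late harvest the slope was -1.10 ± 0.08 (adjusted p = 2.72e-06). At 6 h a slope was called for 11% of probe sets and at 78 h for 12.1%, and only 0.875% had a steeper slope of either sign at 78 h. All 18 probe sets of the bacterial and phage hybridization controls also had negative slopes at 78 h, from -0.63 to -0.15 with a median of -0.30, and at 6 h slopes from -0.10 to 0.06. Several of them measure the same transcript (bioB, bioC, bioD or cre), so the 18 signs are not independent. None of the 18 slopes at 78 h was past the test, with SE up to 0.47. The slopes of PGRL1B were outside the range of these controls at both harvests. Over all probe sets the median slope at 78 h was 0.02 (quartiles -0.11 and 0.11). Whether gene slopes follow those of the controls was not tested, so lying inside or outside their range decides nothing about a gene. The slope at 78 h was 0.69 ± 0.11 more negative than that at 6 h (-0.69, adjusted p = 0.00582), a difference called for 2.56% of probe sets. Without the 20 °C groups, a contrast added after the values were seen, the early slope from 17 to 8 °C was -0.051 ± 0.12 (adjusted p = 0.945) and the late one -0.98 ± 0.12 (adjusted p = 0.000224). The shares called for these 2 contrasts were 3.71% and 7%. The difference between them, -0.93 ± 0.16, was past the test (adjusted p = 0.0141), as for 1.18% of probe sets. The A arrays alone gave PGRL1B slopes of -0.34 early and -1.18 late, and the B arrays -0.47 and -1.01.

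Comparing the harvests at one temperature showed where PGRL1B went further down. At 20 °C the 78 h value was 0.09 ± 0.11 log2 above that of 6 h (95% interval -0.15 to 0.33), so control plants did not differ detectably. The differences were 0.16 at 17 °C, -0.10 at 14 °C and -0.22 at 12 °C, none past the test. At 10 °C PGRL1B fell by 0.54 ± 0.11 between 6 h and 78 h (adjusted p = 0.0174) and at 8 °C by 0.64 ± 0.11 (adjusted p = 0.00773), where 3.51% and 2.85% of probe sets were called. Each of these calls was lost without the A array of 6 h or without either array of 78 h of that temperature, with adjusted p up to 0.174 and 0.126, and that at 10 °C also with array weights (0.0506).

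**Figure D2:**
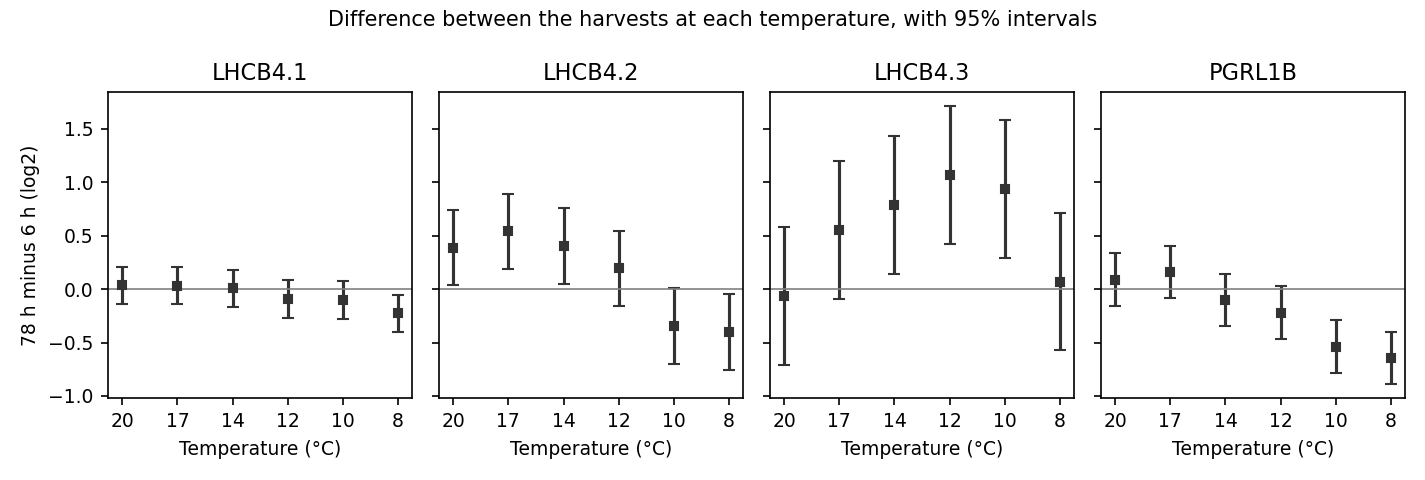
Difference between 78 h and 6 h in log2 (vertical axis) at each temperature in °C (horizontal axis) for the 4 genes, as estimates (squares) with 95% intervals of limma (bars, 2 arrays per group). LHCB4.3 stands highest at 12 °C (1.07), while LHCB4.2 and PGRL1B are below 0 at 10 and 8 °C.

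The slopes of LHCB4.2 on cooling had opposite signs at the 2 harvests. The upward slope at 6 h passed the test on all arrays only with the block. At that harvest 3 of the 5 chilled groups lay below 20 °C, and only 10 and 8 °C lay above it (0.22 and 0.33 log2). No chilled group passed against 20 °C at 6 h, with or without the block. At 78 h LHCB4.2 fell with cooling. The difference between the slopes of the 2 harvests was itself past the test.

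The A and B arrays of LHCB4.2 at 6 h gave 13.08 and 12.99 at 20 °C, 12.99 and 12.66 at 17 °C, 12.92 and 13.04 at 14 °C, 13.06 and 12.86 at 12 °C, 13.48 and 13.02 at 10 °C, and 13.56 and 13.18 at 8 °C. The highest values were the A arrays of 10 and 8 °C, and every neighbouring pair in the order of means overlapped. By 78 h they stood at 13.57 and 13.28 at 20 °C, 13.44 and 13.29 at 17 °C, 13.48 and 13.28 at 14 °C, 13.12 and 13.18 at 12 °C, 12.90 and 12.91 at 10 °C, and 12.89 and 13.04 at 8 °C. The 3 warmest groups overlapped with one another and lay above the 3 coldest, of which 12 °C was above the overlapping 10 and 8 °C groups. The share of all probe sets with such an order was not counted.

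The slope of LHCB4.2 was 0.32 ± 0.12 log2 per 10 °C of cooling at 6 h (adjusted p = 0.0991, and 0.0163 with the letter as a replicate block, where 27% of probe sets were called). At 78 h it was -0.45 ± 0.12 (adjusted p = 0.0195), also past the test with the block, where 29.5% were called. That call was lost when the late A array of 20, of 17 or of 8 °C was omitted (adjusted p = 0.172, 0.0521 and 0.091). The hybridization controls had slopes of up to -0.63 ± 0.28 at that harvest, none past the test. That reaches beyond the slope of LHCB4.2, and the part of the controls in its fall was not tested. The slope at 78 h minus that at 6 h was -0.78 ± 0.16 (adjusted p = 0.0228, and 0.00116 with the block, where 14.7% were called). A larger difference of either sign was seen in 2.63% of probe sets. This call was lost when either 20 °C array or the A array of 8 °C was left out of the 6 h harvest, or the A array of 20 or 8 °C out of the 78 h harvest, with adjusted p from 0.055 to 0.1. Both letters had the same signs, with slopes of 0.44 and -0.63 in the A arrays and of 0.20 and -0.28 in the B arrays.

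No single chilled group of LHCB4.2 passed against 20 °C in the fit to all arrays without the block. The lowest was 10 °C at 78 h with -0.52 ± 0.16 (adjusted p = 0.107, and 0.0132 with the block, where 16.8% of probe sets were called). At 8 °C it was -0.46 ± 0.16 (0.124 and, with the block, 0.0194, where 22.3% were called). Without the block both passed when the 78 h arrays were fitted alone (adjusted p = 0.0459 at 10 °C and 0.0469 at 8 °C), and 8 °C with array weights (0.0476). In the warm groups LHCB4.2 stood higher at 78 h than at 6 h, by 0.39 ± 0.16 log2 at 20 °C, 0.54 at 17 °C and 0.40 at 14 °C, and in the cold ones lower, by -0.35 at 10 °C and -0.40 at 8 °C. None of these differences was past limma's test (lowest adjusted p = 0.288, with 4 of the 6 unadjusted p-values below 0.05), and the control plants, which were not chilled, were part of the pattern.

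LHCB4.3 followed another course, with a hump at 78 h in mild chilling. Its values ran lower in all chilled groups at 6 h, and at 78 h they were above the control from 17 to 10 °C and below it at 8 °C. None of this passed the main test. With the block the 6 h slope and the 78 h curvature passed, while no chilled group passed against 20 °C at 78 h. The spread between the A and B arrays was the widest of the 4 genes. Much of it had 1 direction, with A above B in only 2 of 12 groups (mean A minus B of -0.34).

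For LHCB4.3 the 6 h arrays A and B read 11.13 and 11.30 at 20 °C, 10.95 and 10.98 at 17 °C, 10.37 and 11.18 at 14 °C, 10.43 and 11.03 at 12 °C, 10.29 and 10.86 at 10 °C, and 10.56 and 11.01 at 8 °C. In each letter all 5 chilled arrays were below the 20 °C array of that letter. The 78 h arrays gave 10.97 and 11.33 at 20 °C, 11.21 and 11.82 at 17 °C, 11.68 and 11.44 at 14 °C, 11.82 and 11.78 at 12 °C, 11.25 and 11.77 at 10 °C, and 10.72 and 10.99 at 8 °C. The 12 °C group did not overlap with the next highest, 14 °C, although the B arrays of 17 and 10 °C reached the same height, and all other neighbours in the order of means overlapped. How many of all probe sets show these patterns of LHCB4.3 was not counted.

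The slope of LHCB4.3 was -0.43 ± 0.21 log2 per 10 °C at 6 h (adjusted p = 0.266, and 0.0341 with the block), with -0.62 in the A and -0.23 in the B arrays. At 78 h it was -0.09 ± 0.21 (95% interval -0.55 to 0.37), a straight line through a curved course. The curvature at 78 h, the quadratic term in units of 10 °C squared, was -1.93 ± 0.60 (adjusted p = 0.511, unadjusted p = 0.00632), in a contrast called for 0.0132% of probe sets. With the block its adjusted p was 0.0296, where 1.09% of probe sets were called, and 0.382% of probe sets had a larger curvature of either sign. Against 20 °C the 12 °C group was 0.65 ± 0.30 log2 higher at 78 h (adjusted p = 0.634), or 1.56-fold. At 6 h the largest difference was that of 10 °C, -0.64 ± 0.30 (adjusted p = 0.304, and 0.033 with the block, where 19.5% were called).

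The gap between the harvests was the largest response of LHCB4.3. At 12 °C its 78 h value was 1.07 ± 0.30 log2 above that of 6 h, or 2.1-fold (95% interval 0.42 to 1.71), and only 0.435% of probe sets had a larger difference there. The gap was 1.39 in the A and 0.75 in the B arrays. It was 0.93 ± 0.30 at 10 °C, where the letters gave 0.96 and 0.91, and 0.79 ± 0.30 at 14 °C, where they gave 1.31 and 0.26. Without the block the adjusted p-values at 14, 12 and 10 °C were 0.533, 0.119 and 0.126. With the letter as a replicate block they were 0.0372, 0.00376 and 0.00476, and 4.07%, 9.11% and 14.7% of probe sets were called. At 20 and 8 °C the harvests differed by -0.06 and 0.07, each ± 0.30. A test of whether the gap at 12 °C differs from that at 20 or 8 °C was not run apart from the curvature and slopes.

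LHCB4.1 moved least, with a small fall over the temperatures at 78 h. Its probe set was among the brightest, with single arrays between 14.14 and 14.53 where the whole table ended at 14.81, and whether the signal was near saturation was not tested.

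At 6 h the A and B arrays of LHCB4.1 were 14.43 and 14.47 at 20 °C, 14.41 and 14.47 at 17 °C, 14.42 and 14.53 at 14 °C, 14.47 and 14.50 at 12 °C, 14.43 and 14.48 at 10 °C, and 14.47 and 14.46 at 8 °C. All 6 groups overlapped with their neighbours in the order of means. The 78 h arrays were 14.46 and 14.51 at 20 °C, 14.44 and 14.50 at 17 °C, 14.46 and 14.50 at 14 °C, 14.32 and 14.47 at 12 °C, 14.26 and 14.45 at 10 °C, and 14.14 and 14.33 at 8 °C. The downward course from 12 °C on was steeper in the A arrays, and neighbours in the order of means overlapped here too.

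Its slope was 0.02 ± 0.06 log2 per 10 °C at 6 h (95% interval -0.11 to 0.14). At 78 h the slope was -0.19 ± 0.06 (adjusted p = 0.0446, and 0.00373 with the block, where 29.5% were called). The A arrays gave -0.26 and the B arrays -0.12 at 78 h. The call at 78 h was lost in 19 of the 24 omissions of 1 array, up to an adjusted p of 0.232 when the late A array of 8 °C was omitted. It was also lost with median centring (adjusted p = 0.157). The slope lay within the range of the hybridization controls at 78 h (-0.63 to -0.15), and their part in it was not tested. The difference between the slopes was -0.21 ± 0.08 (adjusted p = 0.27, and 0.0336 with the block, where 14.7% were called). The coldest group, 8 °C at 78 h, was -0.25 ± 0.08 from the control (adjusted p = 0.0894, and 0.00894 with the block), and passed with cyclic loess (0.0304) and array weights (0.0418) too. Between the harvests LHCB4.1 at 8 °C differed by -0.23 ± 0.08 (adjusted p = 0.202, and 0.0246 with the block, where 13.3% were called), and passed with cyclic loess (0.0403).

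**Figure D3:**
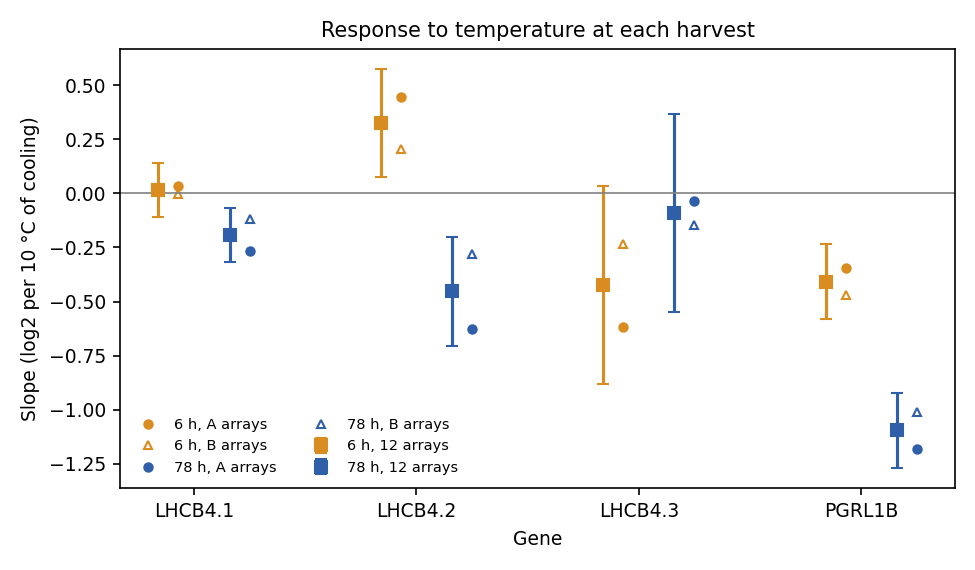
Slope in log2 per 10 °C of cooling (vertical axis) for the 4 genes (horizontal axis) at 6 h (orange) and 78 h (blue). Squares with bars are estimates with 95% intervals over 12 arrays, and circles and triangles the slopes in the A and the B arrays alone. LHCB4.2 lies above 0 at 6 h and below it at 78 h, and PGRL1B goes from -0.41 to -1.10.

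Whether the CP29 genes responded unequally was asked from the difference of their log2 values within each array, regressed on temperature over the 12 arrays of a harvest. At 6 h LHCB4.3 minus LHCB4.2 had a slope of -0.75 ± 0.29 log2 per 10 °C of cooling (two-sided permutation p = 0.0283, adjusted p = 0.0849 over the 6 tests of 3 pairs and 2 harvests). With values centred and permuted within each letter, the exact test gave an adjusted p of 0.00109. LHCB4.3 minus LHCB4.1 had a slope of -0.44 ± 0.20 (permutation test, adjusted p = 0.11, and 0.0163 within letters) and LHCB4.2 minus LHCB4.1 one of 0.31 ± 0.16 (adjusted p = 0.133, and 0.0701 within letters). At 78 h LHCB4.2 minus LHCB4.1 had a slope of -0.26 ± 0.10 (permutation test, adjusted p = 0.0849, and 0.0163 within letters). The pairs with LHCB4.3 at 78 h gave 0.10 ± 0.25 and 0.36 ± 0.30 (adjusted p = 0.682 and 0.299), where a straight line misses the hump. None of the 6 differences thus passed without regard to the letter (2 had an unadjusted permutation p below 0.05), and 3 passed within letters. Among the latter, LHCB4.3 minus LHCB4.1 at 6 h and LHCB4.2 minus LHCB4.1 at 78 h rest on the very bright LHCB4.1 probe set. Whether a signal near saturation changed these slopes was not tested.

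Other genes of the same processes were few on named probe sets. Of the list of nucleus-encoded genes of cyclic electron transport, 3 of 19 entries were measured, all subunits of the NDH complex, and all 3 fell at both harvests. NDHL had slopes of -0.42 ± 0.06 log2 per 10 °C at 6 h and -0.38 ± 0.06 at 78 h (adjusted p = 0.000427 and 0.000791). NDHS, the subunit of the ferredoxin-binding side, had slopes of -0.54 ± 0.07 and -0.32 ± 0.07 (adjusted p = 0.000152 and 0.00766). NDHN, of the same membrane-external arm, had slopes of -0.61 ± 0.13 and -0.60 ± 0.13 (adjusted p = 0.00658 and 0.00663), which reached adjusted p = 0.07 and 0.0584 without 1 array. The list's median slope was -0.54 at 6 h and -0.38 at 78 h, against 0.01 and 0.02 over all probe sets, of which 6.15% fell at 6 h and 6.78% at 78 h. At 78 h the 3 slopes lay within the range of the hybridization controls (-0.63 to -0.15), whose part was not tested, and at 6 h outside it (-0.10 to 0.06). None of the 3 had a difference between the slopes past the test (lowest adjusted p = 0.352, 1 unadjusted p below 0.05), while PGRL1B had one. Whether PGRL1B differs from them in this was not tested.

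Of the list of linear electron transport and the alternative oxidase of plastids, 3 of 12 entries were measured, among them PIFI, which the list holds although it is tied to NDH. PIFI, a chloroplast protein tied to NDH-dependent reduction of plastoquinone in the dark, had slopes of -0.21 ± 0.12 early (adjusted p = 0.324) and -1.06 ± 0.12 late (adjusted p = 4.31e-05). The difference of -0.86 ± 0.16 was past the test (adjusted p = 0.0142, up to 0.0599 without 1 array). In the late group means PIFI went from 12.79 at 20 °C to 11.57 at 8 °C, and PGRL1B from 8.99 to 7.67. PETM, a small subunit of the cytochrome b6f complex, and TROL, which anchors ferredoxin-NADP reductase at the thylakoid, passed at neither harvest, with slopes between -0.19 and -0.03. PETM at 6 h passed with the block (adjusted p = 0.00565).

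Nucleus-encoded photosystem subunits, 4 of 22 entries measured, fell in 3 cases at 78 h, against 6.78% of all probe sets, and in none at 6 h, against 6.15%, where none had an unadjusted p below the threshold either. PSAE-1, PSAN and PSBW had slopes of -0.32, -0.35 and -0.32 at 78 h, beside -0.45 for LHCB4.2, while PSBY had -0.084 (adjusted p = 0.393), and the call of PSBW was lost in 2 omissions, with adjusted p up to 0.0758. The 78 h slopes of PSAE-1, PSAN and PSBW too lay within the range of the hybridization controls. The slope at 78 h minus that at 6 h was past the test for PSAN (-0.43 ± 0.08, adjusted p = 0.00979) and PSAE-1 (-0.31 ± 0.07, adjusted p = 0.0294). The call of PSAE-1 was lost in 10 of the 24 omissions of 1 array, with adjusted p up to 0.0904. That of PSAN was lost in none (adjusted p up to 0.0408). With the block this slope difference was past the test for all 4 subunits. Shares of all probe sets called for this difference were 2.56% without and 14.7% with the block. Of the LHC-like proteins, LIL3:1 and LIL3:2, which hold enzymes of chlorophyll synthesis, had slopes between -0.14 and 0.05, none past the test in limma with or without the block and none with an unadjusted p below it. The other 18 light-harvesting genes, the 4 thylakoid kinases and phosphatases, the 2 xanthophyll cycle enzymes, the 6 genes of antenna insertion, PGR5 and PGRL1A were on no probe set with a single listed gene and were not analysed here.

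**Figure D4:**
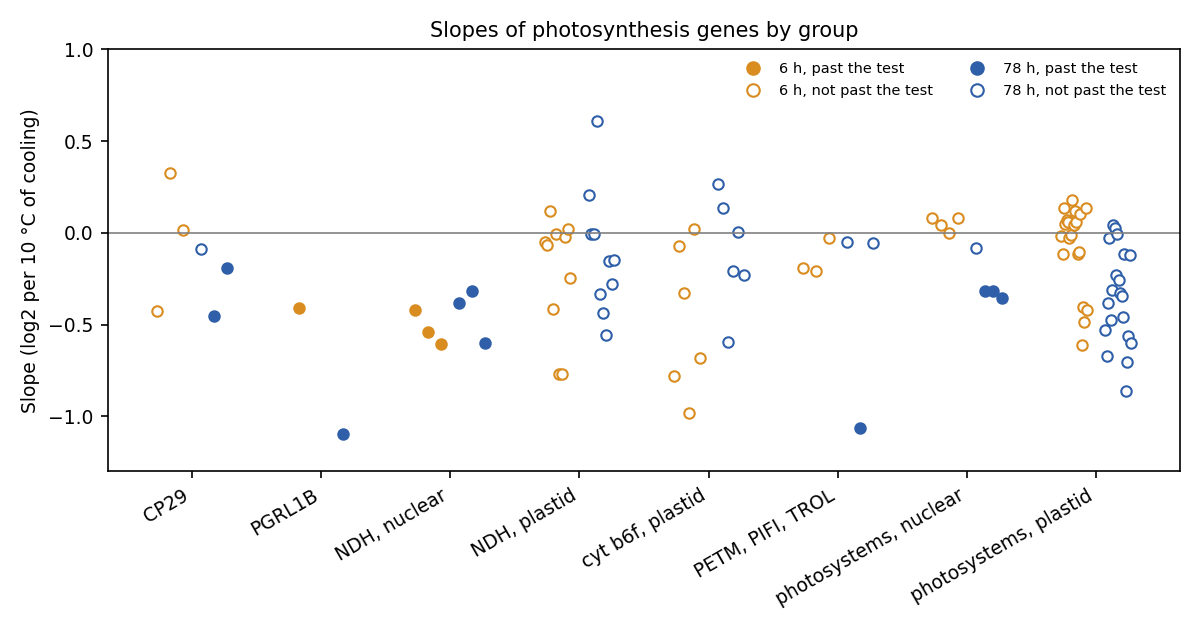
Slope in log2 per 10 °C of cooling (vertical axis) of each measured gene of the photosynthesis groups shown (horizontal axis), without the leaf and root markers, at 6 h (orange) and 78 h (blue). Filled circles passed limma's test at an adjusted p below 0.05 without the block and open circles did not. PGRL1B at 78 h (-1.10) and PIFI at 78 h (-1.06), shown in the group with PETM and TROL, are the lowest filled circles among these groups.

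The root marker PYK10 moved alongside the falls at 78 h, with a slope of -1.54 ± 0.21 log2 per 10 °C (adjusted p = 0.000228) and of -0.06 ± 0.21 at 6 h. It was 1 of 3 root markers past the test, and the summed signal of the 3, on a log2 scale, ranged from 9.84 to 10.13 over the 6 h arrays and from 7.97 to 9.95 over those of 78 h. PYK10 was much the brightest of the 3 (mean 9.20, against 5.97 for EXPA7 and 5.56 for EXPA18). The sum therefore mainly restates PYK10. That of the leaf markers ranged from 14.67 to 15.30 and from 14.84 to 15.37. EXPA7 and EXPA18 passed at neither harvest, and the part of root RNA in the results was not tested. None of the leaf markers passed at either harvest without the block. With the block PRK fell at both, RCA rose at 6 h and SBPASE rose at 78 h. In that fit 14.7% of probe sets fell at 6 h and 15.1% at 78 h, and 27% and 29.5% were called in either direction.

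For each gene the 3 probe sets with a single gene whose 12 group means correlated best with its own were noted as a description. These points share arrays and the A and B letters. For PGRL1B they were AT1G73470 (r = 0.978, n = 12), AT4G33490 (0.974) and AT1G06070 (0.964). For LHCB4.1 they were AT3G16530 (r = 0.967), AT5G11970 (0.961) and AT5G45170 (0.956), and for LHCB4.2 AT4G05150 (0.933), AT3G15220 (0.900) and AT3G52710 (0.899). For LHCB4.3 they were AT3G60420 (r = 0.949), AT2G04900 (0.940) and VPS24.1 (0.939), a subunit of the ESCRT-III membrane-sorting complex. None of the 4 genes was among the closest of another, and over the 12 group means they correlated with each other between -0.07 (LHCB4.1 with LHCB4.3) and 0.73 (LHCB4.1 with PGRL1B). Within a harvest (n = 6 group means) the values differed. LHCB4.1, LHCB4.2 and PGRL1B correlated with each other from 0.829 to 0.885 at 78 h and from -0.464 to 0.071 at 6 h. LHCB4.3 correlated with these 3 from 0.027 to 0.502 at 78 h and from -0.495 to 0.856 at 6 h.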

How the data were processed

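Messenger RNA of rosettes was measured on 24 arrays, 2 per group. The deposited values are taken as log2 because of their range. The near-equal array medians show a normalization by the authors, whose method, background correction and software the sources used here do not state. Of 22810 probe sets, 64 controls were left out and 22746 tested, with no filter on low values. Group means were estimated from all 24 arrays by limma 3.58.1 under R 4.3.3, leaving 12 residual degrees of freedom before empirical Bayes moderation. A slope is the linear contrast of the 6 group means on temperature. All adjusted p-values for genes are Benjamini-Hochberg values of limma over all 22746 probe sets, called below 0.05. Pair differences used 100000 permutations over arrays (numpy 2.4.6), and all permutations within letters for the block. Between any 2 groups (66 pairs) the A minus B differences had correlations from 0.52 to 0.89. The letters therefore pair the arrays, and a second fit took the letter as a replicate block, with 11 degrees of freedom left. The pipeline was tested on simulated data. The labels do not say that A and B are separate cultures, so p-values measure the spread between these samples, and 2 arrays per group limit the precision.

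The members and lists were chosen with earlier results of these data known. Named genes are the 4 members, up to 4 measured members of each list with the largest slopes at each harvest, and the 3 closest probe sets by correlation. Gene names come from the given probe set annotation and list entries were matched to it by locus. Background rows cover the comparisons whose calls are used. Alternatives were the block, other scalings, a filter on dim probe sets, variance settings, array weights, single harvests and letters, and leaving out each array.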

Additional observations from a re-analysis of the deposited data

Results flagged for a closer look

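LHCB4.2 had a slope at 78 h below that at 6 h, with a difference of -0.78 ± 0.16 log2 for each 10 °C (limma's adjusted p = 0.0228) and opposite signs at the 2 harvests in both the A and the B arrays. PGRL1B had a difference of -0.69 ± 0.11 (adjusted p = 0.00582), with negative slopes at both harvests. Both are listed because the test of the difference itself passed. Groups of 2 arrays are too small for a check for single outlying arrays.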

How the results depend on the processing

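The replicate letter mattered most. With it as a block, 6131 probe sets had a slope at 6 h (2513 without), 6711 at 78 h (2750) and 3354 a difference between them (583). It added calls for the slope difference of LHCB4.1 (-0.21), the 6 h slopes of LHCB4.2 (0.32) and LHCB4.3 (-0.43) and 3 pair differences (-0.44 and -0.75 at 6 h, -0.26 at 78 h), and changed no other call among slopes and pair differences. The 6 h arrays alone gave 1458 slopes, or 6292 with the block, where LHCB4.2 (0.32, adjusted p = 0.0222) and LHCB4.3 (-0.43, 0.0214) passed, and the 78 h arrays alone with the block 7908. The fall of LHCB4.1 at 78 h was lost with median centring (-0.16), and at -0.19 without the dimmest 25% of probe sets (adjusted p = 0.0602), with trend and robust estimation (0.0531) and with the 78 h arrays alone (0.117). Cyclic loess made its slope difference pass (-0.31, 0.0456). As lines on temperature, the A arrays alone gave 5323 slopes at 78 h, called LHCB4.3 at 6 h (-0.62) and lost PGRL1B at 6 h (-0.34, 0.179), and the B arrays alone lost LHCB4.1 (-0.12) and LHCB4.2 (-0.28) at 78 h. Array weights changed no slope call, but lost PGRL1B at 14 °C against 20 °C at 6 h (adjusted p = 0.128) and between the harvests at 10 °C (0.0506), and gained 8 °C against 20 °C at 78 h for LHCB4.1 (0.0418) and LHCB4.2 (0.0476). Without the 20 °C groups, added after the data were seen, 844, 1592 and 268 probe sets were called, and PGRL1B at 6 h (-0.051), LHCB4.1 (-0.26) and LHCB4.2 (-0.57) at 78 h lost theirs. Leaving out 1 array gave slopes at 78 h from -0.24 to -0.14 for LHCB4.1 and -0.55 to -0.36 for LHCB4.2, at 6 h from 0.22 to 0.43 for LHCB4.2, which passed without the B array of 10 or 8 °C, and slope differences of LHCB4.2 from -0.88 to -0.67. Counts ranged from 1473 to 2554 at 6 h, 1460 to 2808 at 78 h and 238 to 852 for the difference. They left the range of 1.5 times for 6 h when the early B array of 20 °C was omitted (1473), for 78 h when the late A array of 20 °C (1460) or 8 °C (1708) was, and for the difference in 9 omissions. The slopes and slope difference of PGRL1B kept their calls in all 24 omissions. Each member has 1 probe set, so no other could be tried. No result turned its direction with a call. Beyond the construction of fewer arrays or groups, the cause of these changes was not tested.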

Other observations

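Plastid-encoded partners of these complexes were listed from the annotation after it was seen. They comprised 10 NDH subunits, of the complex whose 3 measured nuclear subunits fell. None passed limma's test at either harvest, with or without the block, and 1 had an unadjusted p below 0.05 at 78 h and 0 at 6 h. Their median slope was -0.06 log2 per 10 °C at 6 h and -0.15 at 78 h, with a range from -0.77 (ndhG) to 0.12 (ndhC) at 6 h. The SE at 6 h ran from 0.06 (ndhC) to 0.66 (ndhE), so for some of them a fall like that of the nuclear subunits could be missed. The A and B arrays gave 0.08 and -1.62 for ndhG, -0.11 and -1.43 for ndhE, and 0.13 and 0.11 for ndhC. Of 6 plastid-encoded cytochrome b6f subunits, petG at 6 h (-0.98, adjusted p = 0.0485) and petL at 78 h (-0.59, adjusted p = 0.00295) passed with the block, 1 of 6 at each harvest, where 14.7% of all probe sets fell at 6 h and 15.1% at 78 h. The A and B arrays gave -0.23 and -1.73 for petG at 6 h, and -0.46 and -0.73 for petL at 78 h. Of 20 plastid-encoded photosystem subunits 6 fell at 78 h with the block, among them psbE (-0.46), psbK (-0.67) and psbA (-0.53), against 15.1% of all probe sets that fell and 29.5% called in either direction. At 78 h the A and B arrays gave -0.23 and -0.68 for psbE, -0.11 and -1.23 for psbK, and -0.63 and -0.43 for psbA. None of the 20 passed without the block, where 2 had an unadjusted p below 0.05 at 78 h. The median slope over the 20 was -0.34 at 78 h and 0.02 at 6 h. The hybridization controls had a median of -0.30 at 78 h, and their part was not tested.

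The 3' signal of actin exceeded its 5' signal by an average of 2.78 log2 (A) and 2.23 (B) at 6 h, and by 2.65 and 1.82 at 78 h. For ubiquitin these differences were 1.73 and 1.81 at 6 h, and 1.60 and 1.66 at 78 h. For GAPDH they were 0.63 and 0.84, and 0.60 and 0.51. Over the 78 h arrays the difference had a slope per 10 °C of cooling of -0.26 for actin, -0.11 for GAPDH and 0.02 for ubiquitin. The part of RNA quality in the falls at 78 h was not tested.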
